A study of Saccharomyces cerevisiae with 134 samples.

Results

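Short genes were taken as the 1160 of 5355 genes measured in all 3 H3K36me3 time courses whose coding length was under 600 bases. Their coding lengths ran from 51 to 597 bases with a median of 369 bases, 334 were under 300 bases and 801 were under 450 bases. The choice used length and no measured value. They were set against genes of 1000 to 2000 bases, of which there were 1979, and 899 short genes could be paired 1 to 1 with such a gene of nearly the same RNA level, the mean of the dark to light 0 min libraries in TPM, a measure of transcript abundance scaled for length and depth. The other 261 short genes had no partner, 256 of them with complete mark values, for which no longer gene of close enough RNA was left. The RNA of these 261 lay toward both ends, with quartiles of 0, 515 and 1865 TPM, against 9.64, 38.7 and 117 TPM in the paired short genes. RefSeq's R64 annotation of the yeast genome holds 1054 of the 1160, and the other 106 are given only by their systematic names, with no role.

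The cells were budding yeast, strain BY4741, in which SET2 was deleted and Set2 came from LANS-Set2, a fusion that carries the enzyme into the nucleus under blue light and out of it in the dark. Every course therefore lacked the natural SET2 gene. 3 courses were measured by chromatin immunoprecipitation and sequencing with an antibody against H3K36me3: a light to dark course in set2Δ rph1Δ cells with LANS-Set2 (0, 30, 60 and 90 min in the dark), a light to dark course in set2Δ cells with LANS-Set2 (the same times), and a dark to light course in set2Δ cells with LANS-Set2 (0, 20, 40 and 60 min in blue light). For the double deletion the sample labels give set2Δ rph1Δ, while the growth text speaks of rph1Δ cells with LANS-Set2. RNA of the set2Δ LANS-Set2 cells was sequenced in both directions of the switch, with 3 libraries a time and 2 at 60 min of light. All these cultures grew in medium without leucine at 30 °C.

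Set2 is the methyltransferase that makes all H3K36 methylation in budding yeast. It rides on elongating RNA polymerase II by binding the phosphorylated tail of the polymerase, so the trimethyl mark builds up over transcribed coding regions and is low at promoters and at the start of genes. Rph1 is a JmjC demethylase that can remove it. A gene with a short coding region gives the polymerase little distance to run, and in yeast such genes code for ribosomal proteins, histones, small subunits of the respiratory chain, pheromone precursors and many small proteins with no known role.

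The shortest named members show the scale. RPL41A and RPL41B, which both code for ribosomal protein L41, have coding sequences of 78 bases that differ in 1 base, given here in full from RefSeq's R64 genome with the differing base in capitals. RPL41A lies at chrIV:130407-130484 and RPL41B at chrIV:221724-221801, both on the minus strand.
RPL41A: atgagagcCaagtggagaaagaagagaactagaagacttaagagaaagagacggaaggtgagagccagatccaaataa
RPL41B: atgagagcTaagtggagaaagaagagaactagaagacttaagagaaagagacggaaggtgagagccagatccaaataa

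A second pair shows how a short coding length can span a longer stretch of chromatin. RPS22A and RPS22B code for ribosomal protein S22, both have 393 coding bases, and 89.6% of those bases are the same. The coding region of RPS22B is split after base 133 by an intron of 483 bases and that of RPS22A is not. The 60 bases around that point are given for each gene, for RPS22B with the first 6 bases of the intron in capitals (chrXII:856545-856604, plus strand) and for RPS22A as uninterrupted coding sequence (chrX:75140-75199, minus strand). The third line is part of the same RPS22B intron (chrXII:857026-857055), with the branch site letters TACTAAC in capitals.
RPS22B: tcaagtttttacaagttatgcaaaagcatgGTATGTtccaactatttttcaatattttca
RPS22A: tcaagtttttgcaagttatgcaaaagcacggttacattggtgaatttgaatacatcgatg
RPS22B branch site: ttcttcaaTACTAACatttactccttattt

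Each course had 12 libraries and the deposited table gives 1 value per gene and library. How that value was computed and the read depth behind it are not given in the sources used here. Whether the Schizosaccharomyces pombe chromatin added to the immunoprecipitations was used to scale it is not given either. Histone H3 itself was also immunoprecipitated at each time of these courses. Whether the value is taken relative to H3 is likewise not given, and H3 over short genes was not examined. Values are therefore compared within a course, and no counting interval is given. The labels do not say whether libraries with different replicate numbers came from separate cultures, so the p-values measure the spread between these libraries, which may be technical. The spread was wide in the double deletion, where the median short gene varied between the 3 libraries at 90 min by a coefficient of variation of 34.3%, against 13.2% in the set2Δ light to dark course and 14.3% at 60 min of the dark to light course. Replicate 3 of the double deletion had the highest values at every time.

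In the median, short genes with a partner had lower deposited H3K36me3 values than longer genes of the same RNA level, in the light and in the dark. In constant light, before the switch to dark, the median over the 899 short genes was 0.0494, 0.0601 and 0.0479 in the 3 set2Δ libraries, against 0.121, 0.151 and 0.121 over the matched genes of 1000 to 2000 bases. The set2Δ rph1Δ cells in constant light had short genes at 0.0866, 0.0908 and 0.134 and matched genes at 0.201, 0.207 and 0.283. After 60 min of light that followed growth in the dark, the short genes were at 0.0489, 0.0542 and 0.0600 and the matched genes at 0.105, 0.126 and 0.143. The library medians of short and matched genes did not overlap at any of the 12 times, and the short genes were lower in 36 of 36 libraries.

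The difference on the log2 scale, short minus matched, was -1.22 ± 0.029 in constant light in set2Δ cells, -1.06 ± 0.046 in constant light in set2Δ rph1Δ cells and -1.12 ± 0.087 after 60 min of light (SD, n = 3 libraries each, with a pseudocount of 0.1 times the table median). Within pairs, the short gene was the lower one in 697 of 899 pairs in constant light (77.5%). TPM divides reads by an effective length, and for short genes that length is a small part of the gene, a median of 0.325 of the coding length, against 0.823 in genes of 1000 to 2000 bases. Pairing the genes on reads per base of coding length instead gave -0.98 in constant light in set2Δ cells, -0.85 in set2Δ rph1Δ cells and -0.87 after 60 min of light.

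Gene by gene, the level of each gene over a whole course was tested against the median of the matched genes in the same libraries (limma, Benjamini-Hochberg over all genes fitted). In the dark to light course 739 of 937 short genes that passed the filter on low values were lower and 146 were higher, where 54.3% and 40.8% of all genes were. In the light to dark course of set2Δ rph1Δ cells 677 of 881 were lower and 146 higher (all genes: 52.5% and 41.7%). In that of set2Δ cells 737 of 915 were lower and 128 higher (all genes: 52.8% and 42.6%). Among the matched genes themselves, which spread around their own median, 311 of 778 were lower and 431 higher in the set2Δ light to dark course. Without the filter the lower counts were 961 of 1158, 953 of 1156 and 978 of 1156 in the same order (all genes: 58.9%, 57.3% and 57.5%).

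**Figure D1:**
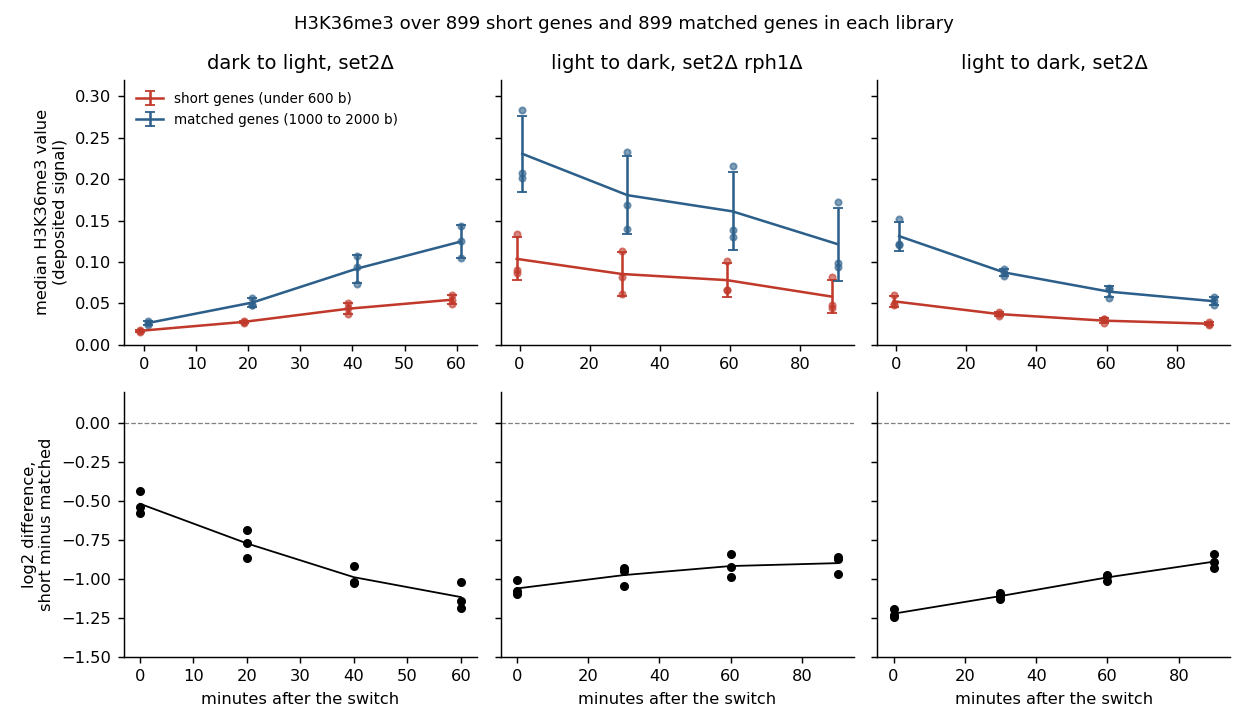
Top, median deposited H3K36me3 value over the 899 short genes (red) and the 899 matched genes of 1000 to 2000 bases (blue) against minutes after the switch in each course. Points are libraries and bars the mean ± SD of 3. Bottom, the log2 difference short minus matched in each library, which widens with time in light, reaching -1.12 on average at 60 min against -0.52 at 0 min. On average it narrows with time in the dark, but in replicate 3 of set2Δ rph1Δ cells only from -1.01 at 0 min to -0.97 at 90 min.

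The mark also rose and fell by smaller factors over short genes. In blue light the median over short genes was 0.0168 ± 0.00125 at 0 min, 0.0276 ± 0.00136 at 20 min, 0.0435 ± 0.00672 at 40 min and 0.0544 ± 0.00556 at 60 min (SD, n = 3). The matched genes were at 0.0263 ± 0.00242, 0.0509 ± 0.00526, 0.0918 ± 0.0169 and 0.125 ± 0.0194 at those times. The 60 min median was 3.26 ± 0.476 times that at 0 min in short genes and 4.74 ± 0.653 times in matched genes (mean ± SD of the ratios within 3 replicate numbers, which are not shown to pair libraries across times). At 0 min, after growth in the dark, the 2 sets were already apart by -0.52 ± 0.074 on the log2 scale.

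In the dark, the set2Δ short genes were at 0.0525 ± 0.00664 at 0 min, 0.0370 ± 0.00255 at 30 min, 0.0291 ± 0.00290 at 60 min and 0.0254 ± 0.00147 at 90 min, so that 0.487 ± 0.0397 of the starting value was left, against 0.402 ± 0.0281 in matched genes. In set2Δ rph1Δ cells the short genes were at 0.104 ± 0.0260, 0.0854 ± 0.0264, 0.0780 ± 0.0203 and 0.0581 ± 0.0202, with 0.552 ± 0.0491 of the starting value left, against 0.516 ± 0.0796 in matched genes. By replicate, the share left in set2Δ rph1Δ cells was 0.517, 0.531 and 0.608 in short genes, against 0.465, 0.476 and 0.608 in matched genes, so that replicate 3 showed no difference. By slope, short minus matched there was 0.14 and 0.12 log2 per hour in replicates 1 and 2 and 0.026 in replicate 3.

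As a share of each set's own change, the short genes were slightly ahead of the matched genes in light. Of the full change in the median between 0 and 60 min of light, 28.9% ± 6.03 had been made by 20 min in short genes and 25.2% ± 4.61 in matched genes, and by 40 min 70.2% ± 7.70 and 66.2% ± 3.93 (SD, n = 3). Within each replicate number the short share was the higher one at both times, by 20 min with 34.4%, 22.5% and 29.9% in short genes, against 29.2%, 20.2% and 26.3% in matched genes, and by 40 min with 62.03%, 71.3% and 77.3%, against 61.7%, 67.7% and 69.1%. No test of this was made. In the dark the set2Δ short genes had made 56.3% ± 5.86 of their loss by 30 min and the matched genes 54.9% ± 7.13, and by 60 min 85.8% ± 8.82 and 84.9% ± 5.18. The 30 min shares in set2Δ rph1Δ cells were 40.2% ± 21.1 and 45.8% ± 10.6, and at 60 min 55.9% ± 6.51 and 63.8% ± 2.66. In neither dark course did the 3 replicates all go the same way at 30 or at 60 min.

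Nearly all short genes tested followed the switch in set2Δ cells, and most did in set2Δ rph1Δ cells with all replicates. With a linear slope over time on the log2 scale, 932 of 937 short genes gained the mark in light (limma adjusted p under 0.05; 99.9% of all genes did). In the dark 774 of 881 lost it in set2Δ rph1Δ cells (97.4% of all genes) and 901 of 915 in set2Δ cells (99.6%). With replicate 2 left out, 0.114% of the short genes tested passed in set2Δ rph1Δ cells, while the median slope over all short genes was -0.47, -0.51 and -0.41 log2 per hour in replicates 1, 2 and 3. The median slope over matched short genes was 1.46 log2 per hour in light, against 1.88 for the matched genes. In the dark it was -0.45, against -0.55, in set2Δ rph1Δ cells and -0.58, against -0.76, in set2Δ cells.

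To test each gene against the matched genes, the library median of the matched genes was subtracted from every value, and the slope of what was left is called the relative slope here. In light 686 of 937 short genes rose more slowly than the matched median and 22 rose faster, where 52.6% and 8.26% of all genes did. Of the matched genes 314 of 765 were slower and 106 faster. The median relative slope was -0.52 log2 per hour in short genes and -0.12 in the matched genes, which is not 0 because a median of slopes is not the slope of a median. Without the filter 908 of 1158 short genes were slower (57.5% of all genes).

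In the dark, 315 of 915 short genes lost the mark more slowly than the matched median in set2Δ cells and 49 lost it faster (25.8% and 4.38% of all genes). Leaving out any 1 of the 3 replicates brought the slower share to between 12.3% and 14.9%, against 34.4% with all 3. Of the short genes in set2Δ rph1Δ cells, 10 of 881 were slower and 23 faster (0.291% and 1.2% of all genes). Without any 1 replicate at most 0.227% were slower and 0.681% faster there. The median relative slope of short genes in set2Δ rph1Δ cells was 0.068, with a median SE of 0.065, against 0.17 and 0.077 in set2Δ cells.

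Short genes differed less in slope from genes of their own level. When short genes were paired with genes of 1000 to 2000 bases that had the same mark in the other direction of the switch, in place of the same RNA, the slope difference shrank to -0.20 log2 per hour in light, against -0.42 with pairing on RNA. In the dark it shrank to 0.041 in set2Δ rph1Δ cells, against 0.10, and to 0.072 in set2Δ cells, against 0.18. That pairing was added after the data were seen.

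**Figure D2:**
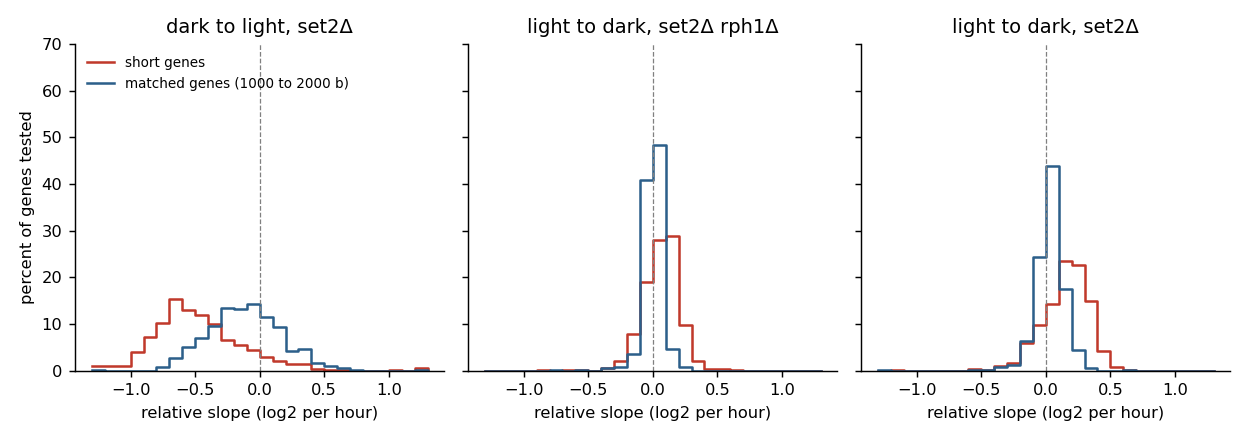
Relative slope (log2 per hour) of the short genes tested (red) and of the matched genes tested (blue), as percent of genes in bins of 0.1, with values past the axis counted in the end bins. The short genes lie to the left in light, with a median of -0.52 against -0.12 in matched genes, and to the right in both dark courses.

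Split into steps, 143 of 937 short genes gained less than the matched median in the first 20 min of light (7.54% of all genes) and 362 gained less between 20 and 60 min (23.3%). More than the matched median was gained by 30 in the first step and 2 in the later one (7.08% and 1.39% of all genes). The later step is the longer one in every course, and neither values nor counts are scaled for time. In light the median difference of short genes was -0.21 on the log2 scale over the first step and -0.31 over the later one. Among short genes the shares were 15.3% and 38.6%, and without any 1 replicate they came to between 0.534% and 2.24% for the first step and between 0% and 20.3% for the later one. In the first 30 min of dark in set2Δ cells 1 short gene lagged, RPS14B (ribosomal protein S14; 0.42, SE 0.064, limma adjusted p = 0.042), and 2 led, YCR024C-B (-0.40) and QCR6 (-0.55), all named after their values were seen (0.0208% and 0.0416% of all genes). Between 30 and 90 min of dark 7 lagged and 4 led (0.27% and 0.249%). No short gene of set2Δ rph1Δ cells passed in either step by limma (0% of all genes). In the first and the later step 80 and 96 of 881 had an unadjusted limma p under 0.05, against 265 and 257 of all 4815 genes.

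From 150 bases upward the level of the mark climbed with coding length, class by class, and the short genes lay at its low end. In constant light in set2Δ cells the median was 0.0723 for the 73 genes under 150 bases, 0.050 for the 261 from 150 to under 300, 0.0536 for the 467 from 300 to under 450 and 0.0603 for the 359 from 450 to under 600 bases. It was 0.0775 at 600 to under 1000 bases, 0.121 at 1000 to under 2000 bases and 0.196 at 3000 bases and over. The lowest class was thus 150 to under 300 bases, and the class under 150 bases was higher than it, also in set2Δ rph1Δ cells (0.124, against 0.0951) and at 60 min of light (0.0728, against 0.0519). Below 2000 bases the slope in light followed the same order, with 1.41 log2 per hour in light at 150 to under 300 bases and 1.61 under 150 bases, against 1.91 at 1000 to under 2000 bases. The median coefficient of variation between replicates at 90 min of dark in set2Δ cells was 19.6% under 150 bases, against 9.22% at 1000 to under 2000 bases. The gap was smaller at 90 min in set2Δ rph1Δ cells, with 35.5% and 34.3% in those classes, and at 60 min of light, with 17.0% and 15.6%.

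**Figure D3:**
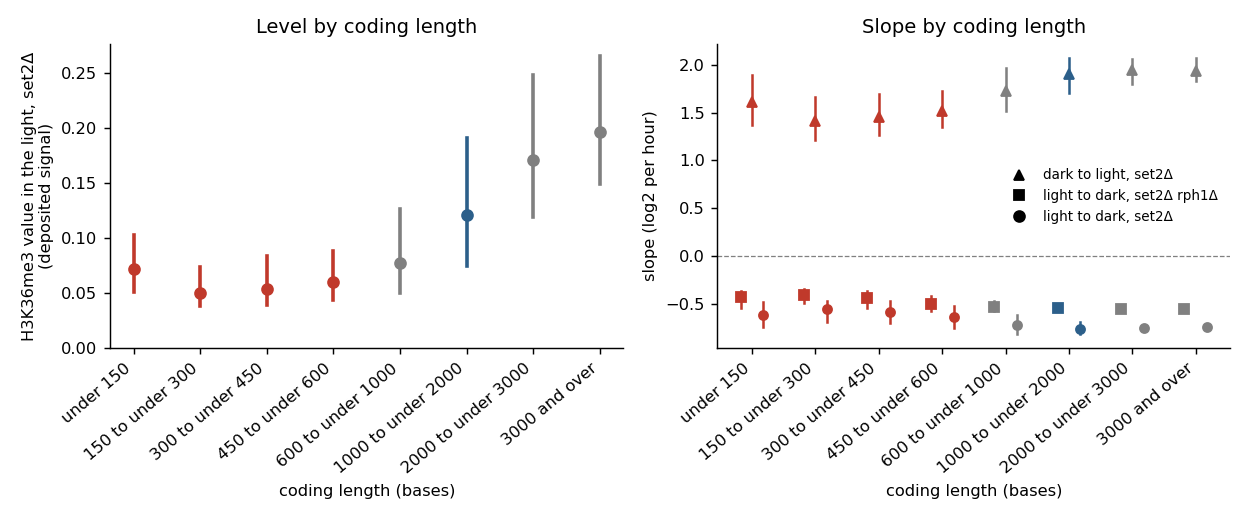
Left, deposited H3K36me3 value in constant light in set2Δ cells by coding length, with the median (point) and quartiles (bar) over genes. Right, slope in log2 per hour by coding length in each course. Red marks the classes under 600 bases, which have medians of 0.050 to 0.0723, and blue the class of 1000 to under 2000 bases at 0.121.

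Up to 511 TPM the median mark of short genes was much the same in every class of RNA level. Among genes of 1000 to 2000 bases the median in constant light climbed with RNA, from 0.0311 at up to 1 TPM through 0.0923 at 7 to 15 TPM and 0.167 at 31 to 63 TPM to 0.218 at 127 to 511 TPM. The short genes in those classes were at 0.0558, 0.0450, 0.0505 and 0.0537. At up to 1 TPM the 194 short genes were thus the higher set, at 1 to 7 TPM they were at 0.0502, against 0.0483, and above 7 TPM they were the lower set in every class. Over 511 TPM the 173 short genes had a median of 0.161 and the 33 longer genes one of 0.389. Of these short genes 84 code for cytosolic ribosomal proteins, and the other 89 were at 0.0631.

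Spearman's rho between RNA and the mark in constant light, over genes, was 0.030 under 150 bases, 0.13 at 150 to under 300, 0.39 at 300 to under 450 and 0.58 at 450 to under 600 bases, against 0.61 at 1000 to under 2000 bases (58, 227, 419, 347 and 1976 annotated genes, all from the same libraries and not independent). With the ribosomal protein genes left out it was 0.12 over 957 short genes. On reads per base of coding length the short genes were the higher set in the highest class, where 64 of 77 short genes are ribosomal and the median was 0.532, against 0.403 in genes of 1000 to 2000 bases.

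**Figure D4:**
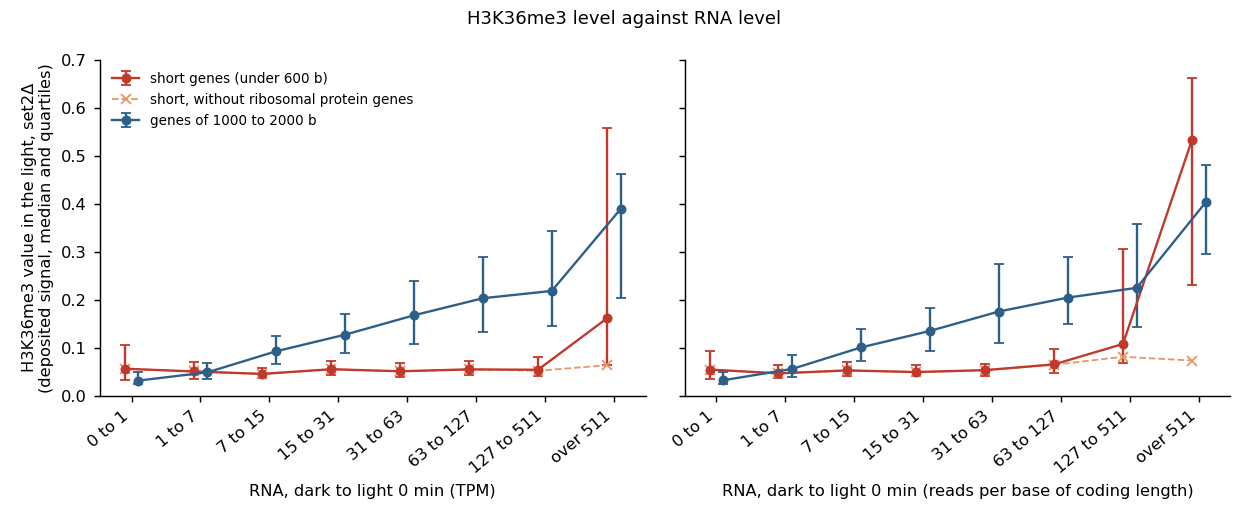
Median H3K36me3 value in constant light in set2Δ cells, with quartiles, by RNA class for short genes (red), short genes without ribosomal protein genes (orange crosses) and genes of 1000 to 2000 bases (blue). The left panel uses TPM and the right panel reads per base of coding length, in the same relative units. The blue medians climb with RNA, and the orange ones stay between 0.0450 and 0.0631 in the left panel.

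Named genes show how far RNA in TPM and mark can part. TPM divides by an effective length that is small in short genes. Over the 3 short mating type a genes the median RNA was 515 TPM but 42.5 on reads per base of coding length. In the matched genes the 2 medians were 38.6 and 31.2. HOR7, a small protein of the osmotic stress response, had 13247 TPM and a mark of 0.0514, 0.0503 and 0.0374 in the 3 libraries of constant light. ACB1, the acyl-CoA binding protein, had 4563 TPM and 0.0586, 0.0778 and 0.0510. NOP10, a subunit of the H/ACA ribonucleoproteins, had 2786 TPM and 0.0325, 0.0393 and 0.0405. The a-factor pheromone gene MFA2 had 2575 TPM and 0.0336, 0.0599 and 0.0322. Each of these values is under the lowest library median of the matched genes in constant light, 0.121. TOM7 and TOM6 of the mitochondrial import pore, ATP18 of ATP synthase, SSS1 of the Sec61 channel and RPB10 of the nuclear RNA polymerases each had over 1000 TPM and means between 0.0482 and 0.0716.

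The cytosolic ribosomal protein genes lay above the matched median, though the matched genes had a median of only 38.6 TPM. 94 of the 1160 belong to this family, with a median of 1966 TPM. Their median mark was 0.531 in constant light in set2Δ cells, 0.738 in set2Δ rph1Δ cells and 0.358 after 60 min of light. Over the set2Δ light to dark course 87 of 94 were above the matched median and 6 below it (limma; 42.6% and 52.8% of all genes). The highest among short genes with a partner, by the rule for named genes, were RPL20A (0.729 ± 0.0488), RPS18B (0.705 ± 0.0360), RPS7B (0.624 ± 0.0557), RPL31A (0.609 ± 0.0459) and RPL14A (0.5998 ± 0.0870; SD, n = 3). Only 18 of the 94 had a partner of the same RNA among genes of 1000 to 2000 bases. Within those pairs the short gene was the lower one in 8 of 18 in constant light in set2Δ cells (medians of short and matched genes 0.386 and 0.336) and in 6 in set2Δ rph1Δ cells (medians 0.591 and 0.439). At 60 min of light it was the lower one in 11 of 18 (medians 0.228 and 0.334). Many of these genes come in near-identical pairs, and how reads shared by both copies were counted is not given in the sources used here.

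Within the family the level differed with the structure of the gene. The 67 ribosomal protein genes whose coding region is split by an intron spanned a median of 833 bases and had median marks of 0.523, 0.626 and 0.559 in the 3 libraries of constant light. The 27 with 1 uninterrupted segment spanned 360.0 bases and had 0.260, 0.348 and 0.284. The libraries of the 2 classes did not overlap, and RNA lay in the other order, with medians of 1827 TPM in the split genes and 3406 TPM in the others. On reads per base of coding length the RNA medians were closer, at 636 and 762. At 60 min of light the split genes were at 0.326, 0.368 and 0.475, against 0.155, 0.165 and 0.216 in the others. The split genes in set2Δ rph1Δ cells in constant light were at 0.691, 0.711 and 0.903, against 0.396, 0.453 and 0.588 in the others. No test was made of this split. Among short genes outside the family the split genes were no higher, with 0.0444, 0.0515 and 0.0426 for 62 split genes, median span 499 bases, and 0.0494, 0.0597 and 0.0480 for 895 others with values.

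The introns differ in size. The 67 introns in short ribosomal protein genes had a median length of 414 bases and the 65 in other short genes one of 90.0 bases. 48 and 49 of them began with GTATGT, the letters in capitals in RPS22B, as did 80 of 103 introns of the genes of 600 bases and over. 63 and 52 held TACTAAC on the coding strand, as did 79 of those 103. Whether the deposited value of a split gene covers its intron is not given in the sources used here.

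RPS22B and RPS22A, whose sequences stand above, are a pair of copies of which 1 is split. RPS22B had 0.661, 0.834 and 0.716 in constant light, 0.477, 0.499 and 0.475 at 30 min, 0.316, 0.423 and 0.373 at 60 min and 0.275, 0.341 and 0.286 at 90 min of dark in set2Δ cells. RPS22A had 0.0858, 0.119 and 0.0996 in constant light, 0.0810, 0.0942 and 0.0883 at 30 min, 0.0542, 0.0666 and 0.0734 at 60 min and 0.0503, 0.0560 and 0.0424 at 90 min. Every RPS22B library at 90 min of dark was thus above every RPS22A library in constant light. At 60 min of light RPS22B was at 0.563, 0.639 and 0.780 and RPS22A at 0.0699, 0.0835 and 0.0977. RNA lay in the other order, with 756 ± 38.8 TPM for RPS22B and 2569.8 ± 189 TPM for RPS22A (SD, n = 3). Among 39 pairs of short ribosomal copies this is 1 of 2 in which a single member is split. In the second pair, of the stalk protein P1, the split RPP1B was at 0.205, 0.265 and 0.222 in constant light, with 3926 TPM, and RPP1A at 0.129, 0.177 and 0.136, with 4335 TPM. The libraries of that pair did not overlap either, but its difference was far smaller. Both pairs were picked after their values were seen, so these are descriptions.

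**Figure D5:**
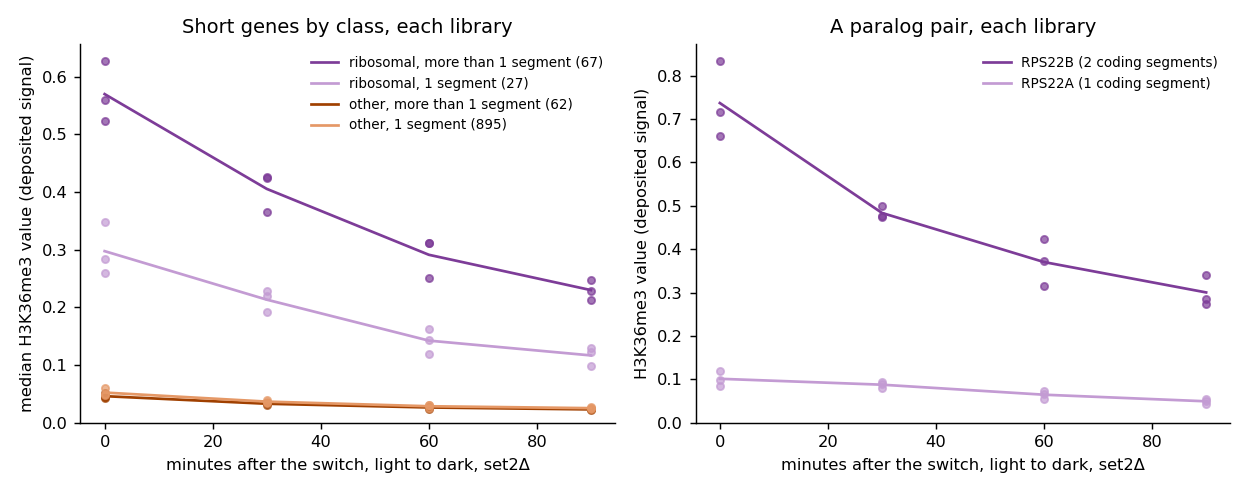
Left, median H3K36me3 value in each set2Δ light to dark library for ribosomal protein genes with more than 1 and with 1 coding segment and for other short genes. Right, RPS22B and RPS22A in the same libraries, where RPS22B stays above RPS22A at all 4 times. Points are libraries and lines their means.

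RPL41A and RPL41B, which differ in 1 coding base, did not share a level. RPL41A was at 0.0888, 0.109 and 0.0836 in constant light and RPL41B at 0.0547, 0.0705 and 0.0520, with no overlap between the libraries. At 60 min of light RPL41A was at 0.0746, 0.0831 and 0.0969 and RPL41B at 0.0392, 0.0545 and 0.0529. Their RNA was 331 ± 52.9 and 350.4 ± 58.2 TPM (SD, n = 3). With coding sequences this alike and this short, reads of 1 copy can be counted for the other, which was not tested.

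In the other 13 lists of small proteins most tested members lay low over the set2Δ light to dark course. Of the short mitochondrial ribosomal protein genes 25 of 25 tested were below the matched median over the set2Δ light to dark course, of the short subunits of the respiratory chain and ATP synthase 22 of 24, of the mitochondrial import and assembly factors 15 of 16, of the stress and redox proteins 11 of 11 and of the histone genes 9 of 9, where 52.8% of all genes were. Their median marks in constant light were 0.0585, 0.0463, 0.0453, 0.0489 and 0.0863, against 0.106 over all genes, while their median RNA was 66.2, 303, 126, 883 and 749.7 TPM. On reads per base of coding length their median RNA was 23.4, 53.8, 32.2, 139 and 232. The matched genes had 31.2 on that scale and all genes 18.2. The 12 short translation factors and ribosome-associated proteins lay on both sides, with 3 above and 8 below of 11 tested, and in set2Δ rph1Δ cells with 5 above and 3 below of 9. Histone H4 is made from 2 genes with similar RNA, HHF1 at 1143 TPM and HHF2 at 1108 TPM. HHF1 had 0.0787, 0.0921 and 0.0882 in constant light and HHF2 0.0601, 0.0714 and 0.0639, which did not overlap.

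Below the matched median over the same course were also 13 of 14 tested small RNA polymerase and transcription subunits, 12 of 14 tested Sm and Lsm proteins, 11 of 12 tested ubiquitin conjugation and ubiquitin-like proteins, 6 of 9 tested vacuolar ATPase and membrane proteolipids, 19 of 21 tested small subunits of the secretory pathway and 11 of 11 tested cytoskeletal and calcium-binding proteins. Of all genes 52.8% were below it, and of all short genes tested 737 of 915. No list was tested against either share. The members with the most RNA in these lists were RPB10 and RPC10, SNU13 and LSM6, UBC4 and RUB1, PMP1 and PMP3, SSS1 and SBH2, and COF1 and PFY1. Of these SNU13, a protein of the spliceosome and of box C/D ribonucleoproteins, had 0.190 ± 0.0440 in constant light and PMP1, a small regulator of the plasma membrane proton pump, 0.184 ± 0.0133 (SD, n = 3). Cofilin (COF1) was at 0.0815 ± 0.00330, profilin (PFY1) at 0.103 ± 0.00834 and the ubiquitin-conjugating enzyme UBC4 at 0.0757 ± 0.0125. Of the 3 short mating type a genes 2 were tested and both were below. The 860 short genes on no list had a median of 0.0520, close to the 0.0557 over all short genes, and the 106 not in RefSeq one of 0.0692.

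In light most tested members of the low lists rose slowly, and the cytosolic ribosomal protein genes did so in about the background share. Of the short genes tested, 25 of 26 mitochondrial ribosomal protein genes, 22 of 26 respiratory subunits, 8 of 9 histone genes and 52 of 94 cytosolic ribosomal protein genes rose more slowly than the matched median, beside 52.6% of all genes. The median relative slope of the cytosolic ribosomal protein genes was -0.27 log2 per hour and that of the mitochondrial ones -0.64. In the dark the calls of the 2 families differed, though the difference itself was not tested. In set2Δ cells 17 of 25 mitochondrial ribosomal protein genes lost the mark more slowly and 0 faster, while 13 of 94 cytosolic ones were slower and 27 faster, beside 25.8% slower and 4.38% faster over all genes. In set2Δ rph1Δ cells 15 of the 23 short genes that lost the mark faster were cytosolic ribosomal protein genes, 15 of 94 tested, where 1.2% of all genes were faster. The faster share over short genes there was 2.61% and fell well below that without any 1 replicate, as given above. The slower share in set2Δ cells fell as well.

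Among short genes with a mean value at or over the table median, the extremes past the threshold were named in each course. The slowest in light with RNA were RPS28B, -1.03 (SE 0.11, limma adjusted p = 2.5e-05), and RPL41A, -0.93 (SE 0.12, limma adjusted p = 5.9e-05), both ribosomal protein genes. RPS28B rose to 0.101, 0.107 and 0.139 at 60 min, against 0.0570, 0.0546 and 0.0512 at 0 min. The other slow ones, YHR212W-A, YER138W-A and UTR5, had at most 0.233 TPM and SEs of 0.22 to 1.07. Of the fast ones YCR024C-B had RNA, 4702 TPM, and a relative slope of 0.67 (SE 0.22, limma adjusted p = 0.016). It rose to 0.254, 0.264 and 0.302 at 60 min, against 0.0443, 0.0303 and 0.0302 at 0 min. YLR157W-E, YLR159W and YLR161W share 1 set of values and 0 TPM, and with YOR192C-C complete the 5. Among the short genes 9 in 3 sets share all their dark to light values with another short gene, so they are not separate measurements.

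YCR024C-B was also the steepest in the dark in set2Δ cells, at -0.51 (SE 0.048, limma adjusted p = 3.2e-05), and it was at -0.37 (SE 0.077, limma adjusted p = 0.033) in set2Δ rph1Δ cells. It fell to 0.0603, 0.0680 and 0.0635 at 90 min of dark in set2Δ cells, against 0.278, 0.292 and 0.248 in constant light. It lies 79 bases past the end of PMP1 on the same strand. RPS29A of the small ribosomal subunit followed in set2Δ cells at -0.48 (SE 0.052, limma adjusted p = 1.2e-04), then YLR264C-A (-0.43), the transcription coactivator MBF1 (-0.40) and QCR6 of respiratory complex III (-0.37). In set2Δ rph1Δ cells the 5 steepest were YLR264C-A (-0.54), YCR024C-B, RPL29 (-0.35), RPS29B (-0.31) and RPS26A (-0.30), and among short genes at or over the median level the 5 least steep past the threshold, RPP2A, TMA19, RPL42A, SNU13 and RPS15, were also faster than the matched median, by -0.12 to -0.18. The slowest in set2Δ cells were YLR112W (0.44), YCR006C (0.41), RPL41A (0.39), MIN10 (0.37) and PMP2 (0.35), a relative of PMP1. MIN10 lies between RPL29 and QCR6 on chromosome VI, had 0.681 TPM, and kept 0.0762, 0.118 and 0.0966 at 90 min, against 0.126, 0.186 and 0.120 in constant light.

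The shortest genes of all ranged widely in mark. YBR191W-A, with 75 bases and 220.5 TPM, was at 0.433, 0.658 and 0.512 in constant light, YDL247W-A, also 75 bases, was at 0.0538, 0.107 and 0.0823 with 0 TPM, and YJR151W-A, with 51 bases and 0 TPM, was at 0.0297, 0.0338 and 0.0257. The lowest levels among short genes with a partner were in YCL048W-A (0.0182 ± 0.00269), RGI2, PAU15, YFR054C and AAD15, all under 3 TPM, with means up to 0.0205. At 117 bases and 1.56 TPM, YLR264C-A was at 0.442, 0.660 and 0.587, and it lies 482 bases from NEJ1 (0.0809) on the same strand and 493 bases from RPS28B (0.276) on the opposite strand.

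The level of short genes also moved with that of the gene next to them. Spearman's rho between a gene's level in constant light and that of its nearest annotated gene was 0.50 under 150 bases, 0.35 at 150 to under 300, 0.30 at 300 to under 450 and 0.28 at 450 to under 600 bases, against 0.16 at 1000 to under 2000 bases, with median gaps between 239 and 294 bases. The RNA of neighbours was related too, with a rho of 0.22 over 1051 short genes and 0.11 at 1000 to under 2000 bases. These are descriptions over genes of the same libraries. Short genes outside the ribosomal family whose neighbour lay in the top 25% of all genes had a median of 0.0625 (244 genes) and those beside the bottom 25% 0.0410 (267 genes), against 0.141 and 0.0837 for matched genes. Of the 20 short genes under 5 TPM with the highest levels, the nearest gene was higher in 9, lower in 8 and equal in 3. YMR242W-A, at 0 TPM and 0.227, lies 76 bases from RPL20A (0.729), while YJL007C, at 0 TPM and 0.235, lies 125 bases from CTK2 (0.0806), both named after their values were seen. How far reads from a neighbour enter a short gene's value was not tested.

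The limit of 600 bases cuts through a continuous range. The 16 genes of 597 bases, among them RPL16B, the proteasome subunit PRE1 and SDH3 of succinate dehydrogenase, had levels in constant light from 0.0258 (REE1) to 0.727 (RPL16B). The 10 genes of 600 bases, among them RPL16A, the tropomyosin TPM1 and PEX17 of peroxisome import, ran from 0.0425 (PEX17) to 0.525 (RPL16A). RPL16B and RPL16A, copies of ribosomal protein L16 that are both split by an intron, stand on the 2 sides, at 0.727 ± 0.0427 and 0.525 ± 0.0391 (SD, n = 3).

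The test of Rph1 was the difference between the relative slopes of the 2 light to dark courses, set2Δ rph1Δ minus set2Δ. 1 of 847 short genes passed (limma; 0.127% of all genes were lower and 0.0424% higher). It was RPS11B, whose protein belongs to the small ribosomal subunit, with a difference of relative slopes of -0.31 log2 per hour (SE 0.059, limma adjusted p = 0.019). It did not pass without replicate 1 or without replicate 2 (limma adjusted p = 0.179 and 0.282). Without subtracting the matched median 0 of 847 short genes passed by limma (0% of all genes). An unadjusted p under 0.05 was reached there by 37 of 847, against 119 of all 4712 genes. With the replicate number as a block more short genes passed in both forms of the test, as given under the processing below. The share over all genes was not computed with the block. The median difference over short genes was -0.090 log2 per hour relative to the matched genes, with a median SE of 0.11, and 0.16 as measured, with a median SE of 0.20. Over all genes the 2 medians were -0.051 and 0.20. The 2 courses come from separate tables, so their levels are not compared.

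The authors' deposited table of models, which gives for each gene an estimate of change with 95% bounds, has bounds that exclude 0 for 1056 of 1155 short genes in the dark to light course (96.2% of all genes). In the light to dark courses the authors' deposited table has such bounds for 691 of 1155 short genes in set2Δ rph1Δ cells and 688 in set2Δ cells (79.1% and 79.1% of all genes). For the matched genes the authors' deposited table has 869, 729 and 769 of 899 in the 3 courses, in that order.

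Short genes hold 53.2% to 61.0% of all TPM in the RNA libraries. In TPM, reads are divided by an effective length. Its median is 0.325 of the coding length in short genes and 0.823 in the longer comparison genes. Relative to reads per base of coding length this raises the TPM of short genes, and their share on that scale was not computed. At 60 min of light, 1 of 975 short genes was higher than at 0 min by limma on log2 of TPM plus 1 (0.0508% of all genes). Of the 975, 0 were lower (0% of all genes), and 304 had an unadjusted p under 0.05, against 1159 of all 5907 genes. The gene that passed was TSA2, a peroxiredoxin, named after its values were seen. It had 337 and 302 TPM at 60 min and 185, 184 and 176 TPM at 0 min. At 90 min of dark 21 of 964 were higher and 4 lower (1.65% and 0.306% of all genes). Leaving out all libraries of 1 replicate number, the higher share ran from 0% to 5.34%, against 2.18% with all. The lower ones, again named after the fact, were GPX2, a glutathione peroxidase, RIB4 of riboflavin synthesis, YIL134C-A and YOR072W-B. TSA2 was among the higher ones, with 221, 316 and 350.2 TPM at 90 min and 90.0, 111 and 96.8 TPM at 0 min.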

How the data were processed

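H3K36me3 was measured by chromatin immunoprecipitation and sequencing in 3 courses of 12 libraries. The authors deposited 1 signal value per gene and library. Its scaling and read depth are not given in the sources used here. RNA was deposited by the authors as Salmon TPM, with coding length and effective length, per the file headers. The authors' models of the mark are deposited as other tables and used as given. The submitters' processing notes name sacCer3, STAR 2.5.4b, deepTools 2.5.4 and Salmon 0.8.1, without saying which step made which table. Coordinates, spans, introns and sequences come from RefSeq's R64 annotation. It was matched by systematic name, and its summed coding segments equal the deposited length for 5242 of 5247 genes.

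The members and lists were chosen with earlier results of these data known. Each short gene was paired with the nearest unused gene of 1000 to 2000 bases in log2(TPM + 1), within 0.25. Values were tested as log2(value + 0.1 times the table median) with limma 3.58.1 in R 4.3.3 with a variance trend, over all genes whose mean reached the 10th percentile of the table, with Benjamini-Hochberg adjustment at 0.05 over all of them. Levels and slopes were tested after subtracting the library median of the matched genes, in each course on its own, and slopes used time in hours. RNA was tested as log2(TPM + 1) in genes with a mean of at least 1 TPM, with 2 libraries at 60 min of light. Where counts had been foreseen for RNA, the tables hold TPM. Medians over short genes carry no p. The method was tested on simulated data. Alternatives were other pseudocounts, filters, pairings, length limits and gene sets, leaving out replicates, and a replicate block.

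Named genes are the 5 highest and 5 lowest relative slopes per course among short genes past the threshold, at or over the table median and not overlapping another gene. To these were added the 5 highest and lowest levels among paired short genes, the 3 shortest genes, the 2 members of each list with the most RNA, the genes of the Rph1 test and those at the length limit. Genes with missing values were left out of the fits, 5 of them short.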

Additional observations from a re-analysis of the deposited data

Results flagged for a closer look

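RPS11B, a split ribosomal protein gene of 471 bases, was the 1 short gene whose relative slope in the dark differed between set2Δ rph1Δ and set2Δ cells, by -0.31 log2 per hour (SE 0.059, limma adjusted p = 0.019). Its relative slope was -0.090 (SE 0.047) in set2Δ rph1Δ cells and 0.22 (SE 0.035) in set2Δ cells. In set2Δ rph1Δ cells it was at 0.366, 0.374 and 0.598 at 90 min of dark, against 0.797, 0.894 and 0.988 in constant light. In set2Δ cells it was at 0.332, 0.409 and 0.366 at 90 min, against 0.645, 0.733 and 0.659 in constant light. The adjusted p ran from 0.0016 to 0.28 over its alternatives and lay above 0.05 in 4 of 17: without replicate 1, without replicate 2, and with pairing on reads per base or on the mark. RPS11B has a near-identical copy, RPS11A, and how reads shared by both were counted is not given in the sources used here.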

How the results depend on the processing

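Under every alternative that gave a value the median short gene stayed below the median matched gene, and changed more slowly in each course. The size and the counts of short genes moved with the settings below, from the values given in the report, and the causes were not tested. Percentages are of the short genes tested, and speeds are against the matched genes. With a pseudocount at the table median, the level difference was -0.73 after 60 min of light, -0.60 in set2Δ rph1Δ cells in constant light and -0.74 in set2Δ cells in constant light and the slope difference was -0.52 in light and 0.24 in dark set2Δ cells. 6.62% in light, 12.7% in dark set2Δ rph1Δ cells and 11.5% in dark set2Δ cells were faster. 33.4% in light and 25.8% in dark set2Δ cells were slower in the first step. 69.6% in light and 45.1% in dark set2Δ cells were slower in the later step. 47.6% in dark set2Δ rph1Δ cells and 70.4% in dark set2Δ cells were slower. 2.95% were called for Rph1 relative to matched genes. With a pseudocount of 0.01 times the table median, the level difference was -1.15 in set2Δ rph1Δ cells in constant light and -1.31 in set2Δ cells in constant light and the slope difference was -0.35 in light and 0.12 in dark set2Δ cells. 1.39% in light and 1.70% in dark set2Δ rph1Δ cells were faster. 0% in dark set2Δ rph1Δ cells and 19.5% in dark set2Δ cells were slower. 0.219% in dark set2Δ cells were slower in the first step. 0.236% were called for Rph1 relative to matched genes. With no filter, 3.72% in dark set2Δ rph1Δ cells were slower. 3.20% in dark set2Δ cells were slower in the later step. 0.0866% were called for Rph1 as measured. With a filter at the 25th percentile, 3.54% in light, 4.75% in dark set2Δ rph1Δ cells and 8.04% in dark set2Δ cells were faster. 0.396% in dark set2Δ rph1Δ cells and 15.4% in dark set2Δ cells were slower. 0.179% in dark set2Δ cells were slower in the first step. 0.215% were called for Rph1 relative to matched genes. With pairing on reads per base, the level difference was -0.87 after 60 min of light, -0.85 in set2Δ rph1Δ cells in constant light and -0.98 in set2Δ cells in constant light. 21.97% in dark set2Δ cells were slower. 0.219% in dark set2Δ cells were slower in the first step. 0% were called for Rph1 relative to matched genes. With pairing on the mark, the slope difference was -0.20 in light, 0.041 in dark set2Δ rph1Δ cells and 0.072 in dark set2Δ cells. 5.87% in light, 4.54% in dark set2Δ rph1Δ cells and 10.9% in dark set2Δ cells were faster. 4.70% in light were slower in the first step. 11.95% in light were slower in the later step. 0.227% in dark set2Δ rph1Δ cells and 11.8% in dark set2Δ cells were slower. 0.236% were called for Rph1 relative to matched genes. With no pairing, the level difference was -0.91 after 60 min of light, -0.92 in set2Δ rph1Δ cells in constant light and -1.04 in set2Δ cells in constant light. With a caliper of 0.05, the level difference was -1.19 in set2Δ cells in constant light. 0.219% in dark set2Δ cells were slower in the first step. With a limit of 450 bases, the level difference was -1.14 in set2Δ cells in constant light. 0% were called for Rph1 relative to matched genes. With no overlapping genes, the level difference was -1.27 in set2Δ cells in constant light. 0.401% were called for Rph1 relative to matched genes. With no ribosomal protein genes, 1.02% in dark set2Δ rph1Δ cells and 2.80% in dark set2Δ cells were faster. 0% in dark set2Δ cells were slower in the first step. 0% were called for Rph1 relative to matched genes. With no split genes, the level difference was -1.16 in set2Δ cells in constant light. 0% were called for Rph1 relative to matched genes. With pairing on light to dark RNA, 0.219% in dark set2Δ cells were slower in the first step. With no filter on TPM, 0.345% in light had higher RNA. 0.172% in the dark had lower RNA. Without any 1 replicate, 0.747% to 2.03% in light, 0.341% to 0.681% in dark set2Δ rph1Δ cells and 2.84% to 4.15% in dark set2Δ cells were faster. 0.534% to 2.24% in light and 0% in dark set2Δ cells were slower in the first step. 0% to 20.3% in light and 0% to 0.109% in dark set2Δ cells were slower in the later step. 0.114% to 91.8% in dark set2Δ rph1Δ cells fell past the threshold. 0% to 0.227% in dark set2Δ rph1Δ cells and 12.3% to 14.9% in dark set2Δ cells were slower. 0% to 0.236% relative to matched genes and 0% to 1.89% as measured were called for Rph1. 0% to 0.103% in light and 0% to 5.34% in the dark had higher RNA. 0% to 2.41% in the dark had lower RNA.

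Libraries share replicate numbers across times. Same-numbered libraries deviated together with a correlation over 0.1 in 15 of 18 pairs in light, 13 of 18 in set2Δ rph1Δ cells and 10 of 18 in set2Δ cells in the dark, and in RNA in 11 of 15 in light and 14 of 18 in the dark. The labels do not say that a number marks a shared culture, so the number is not taken as pairing in the tests. For the mark, these correlations cannot decide that choice. They were the same with and without subtracting the matched median, so they do not register a shift common to all genes of a library. Within each dark course 1 replicate number had the highest median over the paired short genes at every time. It was replicate 3 in set2Δ rph1Δ cells and replicate 2 in set2Δ cells. Over all short genes replicate 3 was marginally above replicate 2 at 60 min in set2Δ cells, at 0.03204, against 0.03202. The Rph1 test as measured, made without that subtraction, depended on this choice, with 0% of short genes called, against 20.0% with the block. No share over all genes was computed with the block, so its shares cannot be read as particular to short genes. The median difference as measured was 0.16 log2 per hour in short genes and 0.20 over all genes. Fold rises, shares left and shares of change were taken within replicate numbers. A fit with the replicate number as a block gave 33.0% slower in the first step in light, 2.16% slower in set2Δ rph1Δ cells, 3.97% faster in set2Δ rph1Δ cells, 0% slower in the first step in set2Δ cells in the dark, 1.86% slower in the later step there, 1.06% called for Rph1 relative to matched genes, 20.0% called for Rph1 as measured, 8.31% with higher RNA at 60 min of light, 1.74% with lower RNA at 60 min of light, 8.40% with higher RNA at 90 min of dark and 5.81% with lower RNA at 90 min of dark, and every other share stayed within 1.5 times its value.

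Of the values for named genes, 980 kept direction and side of the threshold and 79 lost the threshold. PMP3, a small plasma membrane proteolipid, changed sign in level, to 0.019 with a limit of 450 bases and 0.051 with pairing on reads per base, against -0.13. The level with pairing on the mark was not run, since that pairing fixes it. Read depth is not known, so no limit from depth could be given.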
